A study of Mus musculus with 4 samples.

Results

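Genes of antigen presentation by the major histocompatibility complex (MHC) were examined in cultured mouse alveolar type II cells. The members were 45 genes chosen by name: the MHC class I heavy chains with beta-2 microglobulin and class I-like molecules, the proteins that cut, trim, transport and load peptides for class I, and the class II chains with their chaperone, peptide exchange factors and transcriptional activators. A row was found for 43 of the 45 among the 28096 gene identifiers of the tables, and levels of H2-L and H2-Q4 were not analysed here. At least 1 nRPKM in every library was reached by 28 of the 43, against 38.8% of all identifiers, 5 members had 1 to 3 reads at most in a library, and H2-M2 had none. The measured members were 17 class I genes, 12 genes of peptide processing and loading, and 14 class II genes.

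The genotype of all 4 libraries was given as KRasEtv wt. Per the labels' protocols, type II cells were sorted from mouse lung as EpCAM+ cells that lacked CD24, podoplanin, the leukocyte marker CD45 and the endothelial marker CD31. The cells were grown in matrigel in BEGM medium with 100 nM 4-hydroxytamoxifen, the ligand of the Cre-ERT2 recombinase, for 4 days and without it for 1 more day. The design text lists mice with the allele KRaswt/d12 and RosaCreERT2, alone or with Etv5loxp/loxp, or with Etv5loxp/loxp and Etv4KO/KO. Every one of these genotypes carries KRaswt/d12 and RosaCreERT2, a Cre expressed from the Rosa locus and thus not limited to type II cells; the labels do not say which of them KRasEtv wt denotes. With a single label there is no contrast between conditions, so levels, proportions between partner genes and the spread between libraries are described. Age, sex and strain of the mice are not stated in the labels, nor is it stated that each library came from its own mouse, so p-values measure only the spread between these libraries, which may be technical.

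MHC class I molecules are found on nearly all nucleated cells and show peptides of cytosolic proteins to CD8+ T cells. The peptides are cut by the proteasome, carried into the endoplasmic reticulum by the TAP transporter and loaded with the help of tapasin, calreticulin and the disulfide isomerase Pdia3. MHC class II molecules show peptides of endosomal origin to CD4+ T cells; the invariant chain Cd74 guards the groove until H2-DM exchanges its remnant for a peptide. Class II is typical of dendritic cells, B cells and macrophages, and alveolar type II cells are among the few epithelial cells known to carry it without infection.

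Libraries 1 to 4 (numbered in accession order) held 12133251, 12987938, 12928901 and 13591876 uniquely aligned reads. Levels are the deposited nRPKM, reads per kilobase of gene length adjusted for library size with a size factor. The libraries were not alike in composition. The 12 type II markers listed were all lowest in library 1, although all had a mean of at least 10 nRPKM. Library 3 had 24871 reads of Xist against 81 to 229 elsewhere, with Kdm5d and Uty at 0 reads there. Elsewhere these Y-linked genes had 237 to 359 and 299 to 410 reads. Library 3 thus had the pattern of female cells and the others that of male cells, so it did not come from the same mouse as the others. Sex and the other differences of library 3 cannot be told apart. Mitochondrial genes took 24.1%, 36.95%, 20.3% and 40.3% of the reads of libraries 1 to 4. Markers of basal, club and mesenchymal cells were lowest in library 3 for 4 of 4, 4 of 5 and 3 of 3 genes with a mean of at least 1 nRPKM. In libraries 1 to 4 basal markers summed to 149.5, 102.5, 20.93 and 48.43 nRPKM. Club cell markers summed to 320.3, 1060, 149.9 and 280.6 nRPKM and mesenchymal markers to 26.42, 15.73, 4.625 and 10.91. The 8 alveolar type I markers, led by Aqp5 and Ager, summed to 609.5, 507.9, 650.4 and 487.5 nRPKM. The part of such cells in the member levels was not tested.

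The promoters of members that the results turn on are shown first, because class I and class II genes are known for short shared motifs just before their starts. In class II promoters these are the X1 box, bound by the RFX complex, the X2 box, bound by CREB, and the Y box, bound by NF-Y; CIITA docks on this assembly, and NLRC5 on its class I counterpart. A promoter was found by symbol for 33 of the 45 members in the RefSeq table of build GRCm38.p6, which differs from the mm9 build of the deposited values; Cd1d1, Cd74, Ciita, H2-Ab1, H2-L, H2-Q1, H2-T10, H2-T24, Nlrc5, Rfxap, Tap2 and Tapbpl had no entry. The last 180 bases before the annotated start are printed, 5′ to 3′ on the strand of the gene, with motif matches on either strand in capitals. H2-Aa lies at chr17:34287824-34288003 (minus strand), H2-Eb1 at chr17:34305687-34305866 (plus strand), H2-DMb1 at chr17:34153011-34153190 (plus strand) and H2-DMa at chr17:34122652-34122831 (plus strand).
H2-Aa: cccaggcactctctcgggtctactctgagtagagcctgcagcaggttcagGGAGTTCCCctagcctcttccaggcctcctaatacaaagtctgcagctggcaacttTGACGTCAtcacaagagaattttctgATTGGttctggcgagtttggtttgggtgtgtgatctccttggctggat
H2-Eb1: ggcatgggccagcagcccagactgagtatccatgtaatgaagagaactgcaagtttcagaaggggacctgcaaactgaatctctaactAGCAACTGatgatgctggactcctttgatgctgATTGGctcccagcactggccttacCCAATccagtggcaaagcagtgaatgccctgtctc
H2-DMb1: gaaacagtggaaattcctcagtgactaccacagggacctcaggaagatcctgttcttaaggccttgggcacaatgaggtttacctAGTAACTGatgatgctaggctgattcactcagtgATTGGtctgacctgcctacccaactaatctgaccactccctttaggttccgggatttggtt
H2-DMa: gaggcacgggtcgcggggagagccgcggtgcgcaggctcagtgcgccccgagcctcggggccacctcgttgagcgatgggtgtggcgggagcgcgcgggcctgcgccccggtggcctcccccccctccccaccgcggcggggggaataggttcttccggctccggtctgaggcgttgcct

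In these class II promoters the capitals of H2-Aa mark GGANTTCCC (a kappa B core), TGACGT (a core of the X2 box, found on both strands and overlapping) and ATTGG (the Y box). In H2-Eb1 and H2-DMb1 they mark AGNAACNG (a core of the X1 box) and ATTGG, which were 25 and 26 bases apart, and in H2-Eb1 also the Y box on the other strand (CCAAT). The longest run that H2-Eb1 and H2-DMb1 share has 13 bases and covers the end of the X1 core. The H2-DMa stretch printed held none of these letters and only AGNNACNG, a looser form of the X1 core that was not put in capitals; a second RefSeq entry of H2-DMa, not printed, held a Y box. ATTGG was found in 25 of the 33 member promoters and in 34.5% of all 27025 genes' promoters, over the 250 bases before the start of the first entry of each gene; H2-Q4, which has a promoter but no level, is counted among the 33. AGNAACNG was found in 5 of 33 and 14.6%, AGNNACNG in 15 of 33 and 43.2%, TGACGT in 4 of 33 and 6.56%, GGANTTCCC in 4 of 33 and 1.04%.

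The corresponding stretches of class I and processing genes each matched the Y box too, and some matched further motifs. B2m lies at chr2:122147507-122147686 (plus strand), H2-K1 at chr17:34000348-34000527 (minus strand), H2-D1 at chr17:35262914-35263093 (plus strand), Pdia3 at chr2:121413722-121413901 (plus strand) and Psmb9 at chr17:34187331-34187510 (minus strand).
B2m: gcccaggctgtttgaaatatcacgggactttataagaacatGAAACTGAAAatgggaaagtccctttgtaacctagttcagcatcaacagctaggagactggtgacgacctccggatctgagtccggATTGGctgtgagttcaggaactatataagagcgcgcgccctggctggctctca
H2-K1: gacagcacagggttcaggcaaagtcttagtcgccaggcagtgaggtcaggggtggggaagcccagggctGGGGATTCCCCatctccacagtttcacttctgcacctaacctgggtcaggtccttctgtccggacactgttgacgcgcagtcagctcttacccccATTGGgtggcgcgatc
H2-D1: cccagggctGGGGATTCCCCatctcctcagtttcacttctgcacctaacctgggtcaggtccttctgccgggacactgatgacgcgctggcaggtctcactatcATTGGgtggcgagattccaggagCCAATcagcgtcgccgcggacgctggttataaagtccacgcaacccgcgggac
Pdia3: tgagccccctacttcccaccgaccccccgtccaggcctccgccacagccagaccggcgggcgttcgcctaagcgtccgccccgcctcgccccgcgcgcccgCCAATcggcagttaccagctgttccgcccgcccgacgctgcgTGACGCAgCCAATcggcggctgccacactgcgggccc
Psmb9: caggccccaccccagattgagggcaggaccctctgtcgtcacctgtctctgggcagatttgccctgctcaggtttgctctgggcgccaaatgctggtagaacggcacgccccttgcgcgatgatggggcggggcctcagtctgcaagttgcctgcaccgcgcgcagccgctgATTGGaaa

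The B2m promoter held a core of the ISRE, the element bound by interferon regulatory factors (searched as GAAA, any 2 bases and GAAA; matched as GAAACTGAAA), and a Y box. The H2-K1 and H2-D1 promoters both held the kappa B site known as enhancer A (searched as GGGGA, any base and TCCCC; matched in both as GGGGATTCCCC), shortly after that site a run of 40 bases that is identical in both, and at least 1 Y box. The kappa B site was found in 3 of 33 member promoters (H2-K1, H2-D1 and H2-Q6) and in 0.0407% of all promoters, and the ISRE core in 3 of 33 (B2m, H2-T22 and H2-T23) and in 3.04%. Pdia3 held CCAAT in 2 places and TGCGTCA, a variant of the X2 box found in 1 of 33 members and 1.78% of promoters, on its other strand. The Psmb9 stretch held a Y box and lies between 2 genes: the starts of Psmb9 and Tap1, on opposite strands, are 226 bases apart. These matches are a description of letters, not of binding. The patterns are strict and miss other forms of the same elements. A promoter without a match, such as H2-K1 or H2-D1 for the ISRE core, is therefore not shown to lack the element.

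Class I genes were led by the light chain and the 2 classical heavy chains. B2m, the light chain common to all class I molecules, had 241, 225, 562 and 199 nRPKM in libraries 1 to 4. H2-K1, a classical heavy chain, had 181, 153, 337 and 143 nRPKM. H2-D1, the other classical heavy chain measured, had 105, 96.6, 187 and 95.5 nRPKM. All 3 were highest in library 3, and their values in libraries 1, 2 and 4 lay close together. The means were 307 ± 171, 204 ± 90.5 and 121 ± 44.5 nRPKM (SD, n = 4), from 2788 to 10090, 3845 to 11623 and 2702 to 6815 reads.

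Proportions within the class I molecule varied less than the levels. H2-K1 exceeded H2-D1 by 1.65 ± 0.135 times, higher in 4 of 4 libraries, with a log2 difference of 0.72 ± 0.12. B2m exceeded H2-K1 by 1.47 ± 0.145 times, also in 4 of 4, with a log2 difference of 0.54 ± 0.14 (SD, n = 4). Each log2 difference of partner genes in this report, computed on log2(nRPKM + 1), was tested with a two-sided exact sign-flip permutation test. For 12 of the 13 pairs p was 0.125, the smallest that 4 libraries allow, with an adjusted p of 0.135 over the 13 pairs. Comparison between genes rests on the gene lengths the authors used. On TMM-scaled CPM, which has no length correction, B2m lay below H2-K1 (log2 difference -0.39).

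Non-classical class I genes were far lower. H2-T23, which encodes the Qa-1 molecule read by NK cell receptors, had 5.44, 4.06, 7.58 and 3.31 nRPKM in libraries 1 to 4. H2-T24 had 4.02, 6.71, 3.90 and 4.87 nRPKM. H2-T22, a ligand of some gamma delta T cells, had 2.68, 1.54, 2.85 and 1.40 nRPKM. H2-T23 and H2-T22 thus peaked in library 3, with the lowest value in library 4, while H2-T24 peaked in library 2 and had its lowest value in library 3. H2-M3, which presents formylated bacterial peptides, had 2.52 ± 0.309 nRPKM, and Mr1, which presents vitamin B metabolites to MAIT cells, had 2.86 ± 0.425 nRPKM (SD, n = 4). Both had a narrow range over libraries, 1.32-fold for H2-M3 and 1.43-fold for Mr1.

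Members of the Q region were close to the detection limit except in library 3. H2-Q7, which encodes a Qa-2 molecule, had 4, 8, 97 and 9 reads in libraries 1 to 4, that is 0.128, 0.293, 3.02 and 0.360 nRPKM. H2-Q6, its near copy, had 4, 2, 27 and 4 reads and 0.200, 0.115, 1.31 and 0.250 nRPKM. Both genes stood out in library 3, which lay 8.39-fold and 5.25-fold above the next highest library. H2-Q2 did not share this pattern, with 23, 9, 19 and 13 reads. H2-Q1 and H2-Q10 had at most 2 and 3 reads in a library. Both were at or below the 3 reads that a count of 0 allows, which correspond to 0.221 to 0.247 CPM.

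Of the remaining class I members, H2-T10 had 0.783 ± 0.250 nRPKM (SD, n = 4) on 43 to 119 reads. Cd1d1, which presents lipids to NKT cells, had 2 to 9 reads, and no read was counted for H2-M2. Nlrc5, the transactivator of class I genes, had 0.209 ± 0.0682 nRPKM (SD, n = 4) and 23, 21, 45 and 22 reads. It was highest in library 3, as were B2m, H2-K1 and H2-D1.

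**Figure D1:**
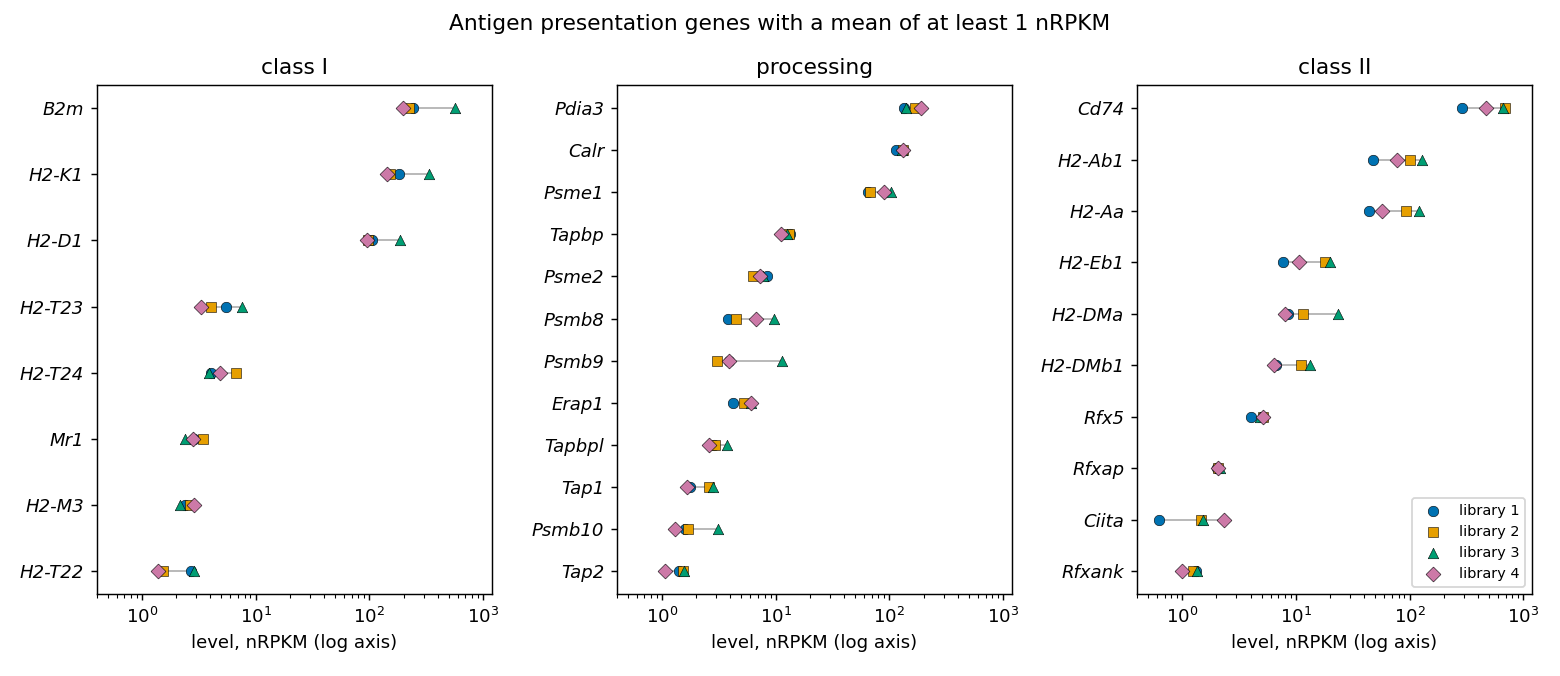
Level in nRPKM on a log axis (x) of each of the 30 members with a mean of at least 1 nRPKM (y, ordered by mean within class I, processing and class II), with 1 point per library and a grey line from the lowest to the highest. Cd74, B2m and H2-K1 lie highest, the points of B2m, H2-K1 and H2-D1 in library 3 lie to the right of the others, and Rfxap shows nearly no spread.

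Class I paralogs are similar in sequence, and per the file headers only uniquely aligned reads were counted. For each gene, the longest coding transcript of GRCm38 was therefore split into 50-base words, and the percent of words present in any other gene was counted. H2-T22 and H2-T10 shared 44.7% and 42.9%, mostly with each other. H2-Q6 and H2-Q7 shared 35.0% and 34.9%, H2-T23 29.8%, Cd1d1 25.8% (all with Cd1d2), H2-Q1 22.9%, H2-D1 14.3% and H2-K1 8.79%. H2-M3 (0.576%), Mr1 (0%) and B2m (0%) shared next to none. H2-Q2, H2-Q10 and H2-T24 shared 8.74%, 8.03% and 3.23%. Levels of H2-T22, H2-T10, H2-T23, H2-Q6, H2-Q7, H2-Q1 and Cd1d1 are therefore uncertain. H2-Q7 and H2-Q9, which is not among the members, had the same count in each of the 4 libraries (4, 8, 97 and 9). H2-Q5 and H2-Q8, also not members, both had 0, 0, 10 and 2 reads. No transcript was found under the symbols H2-Q9 and H2-Q8, so sharing with them may be missing from the percents above. Whether the same reads were counted for both genes of a pair was not tested. Cd1d1 had the counts of an unrelated gene, Unc5c (9, 6, 2 and 9), so equal counts of a few reads do not by themselves show shared reads. Of 15508 genes with at least 20 reads in all, 1.04% had the counts of another gene. Gene length matters too: in library 3 a level of 1 nRPKM stood for 117 reads of H2-T10 but 36.8 reads of H2-T22.

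**Figure D2:**
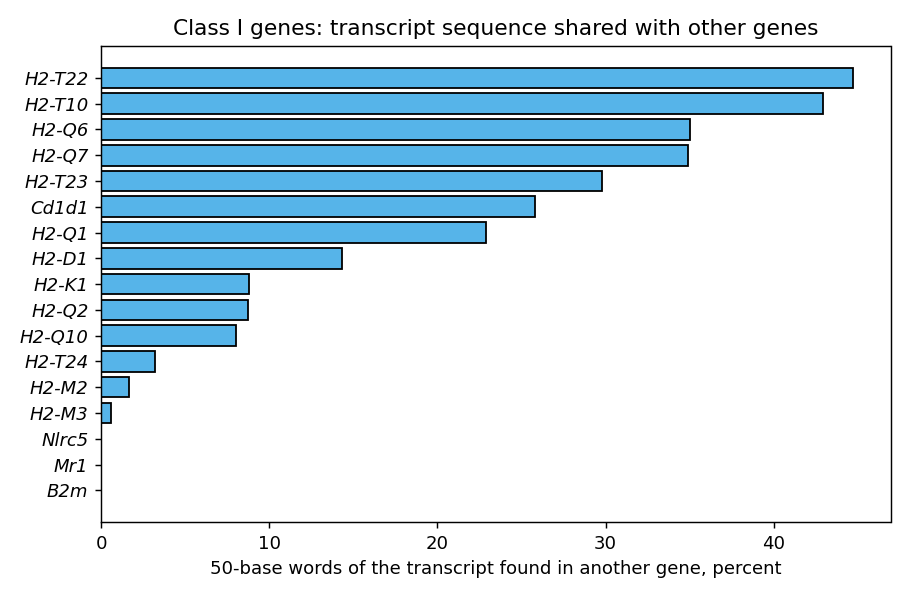
Percent of 50-base words of the longest coding transcript found in other genes (x) for the 17 class I members with a row (y). The T region genes H2-T22 and H2-T10 and the Q region genes H2-Q6 and H2-Q7 share the most, while B2m and Mr1 share none.

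Peptide loading genes were expressed in all libraries and were even. All 7 had at least 1 nRPKM in every library. None had a 2-fold range, against 22.8% of all genes with a mean of at least 1 nRPKM. Pdia3, which is part of the loading complex and also folds other glycoproteins, had 134, 166, 140 and 188 nRPKM. The chaperone calreticulin, Calr, had 114, 131, 128 and 131 nRPKM. Neither was high in library 3, unlike the class I chains they load. Tapbp (tapasin) had 12.6 ± 1.06 nRPKM, its relative Tapbpl 3.04 ± 0.494 and the peptide-trimming enzyme Erap1 5.39 ± 0.856 (SD, n = 4).

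The subunits of the TAP transporter were scarce. Tap1 had 1.78, 2.58, 2.82 and 1.64 nRPKM and Tap2 1.42, 1.52, 1.55 and 1.06 nRPKM in libraries 1 to 4. Tap1 exceeded Tap2 by 1.58 ± 0.242 times, higher in 4 of 4 libraries (log2 difference 0.41 ± 0.17, SD, n = 4; exact permutation p = 0.125). On TMM-scaled CPM the difference was 0.78.

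Psmb9 and Psmb10 lay below the constitutive subunits they replace in every library, and Psmb8 in 3 of 4. Psmb9 had 3.90, 3.08, 11.4 and 3.88 nRPKM, against 35.8, 27.1, 34.2 and 23.6 for its counterpart Psmb6. Psmb10 had 1.58, 1.69, 3.12 and 1.30 nRPKM, against 47.0, 28.3, 59.7 and 49.6 for Psmb7. Psmb8 had 3.81, 4.51, 9.68 and 6.67 nRPKM, against 13.3, 5.56, 14.2 and 6.41 for Psmb5. The immunosubunits were all highest in library 3, with Psmb9 2.92-fold and Psmb10 1.85-fold above the next highest library, and there Psmb9 was still at 0.333 times Psmb6.

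Log2 differences of immunosubunit minus counterpart were -4.00 ± 0.44 for Psmb10, -2.38 ± 0.64 for Psmb9 and -0.57 ± 0.71 for Psmb8 (SD, n = 4). Psmb10 and Psmb9 lay below in 4 of 4 libraries (exact permutation p = 0.125, adjusted p = 0.135). Psmb8 lay below Psmb5 in 3 of 4, with exact permutation p = 0.250, so this difference was within the spread between libraries. It was -0.23 without library 1 and -0.15 on TMM-scaled CPM. Psmb5 shares 57.1% of its 50-base words with other genes and Psmb7 28.1%, which makes their unique counts uncertain. Psmb9 shares 12.5% with Tap1, and since use of strand is not stated, reads of that stretch cannot be told apart.

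**Figure D3:**
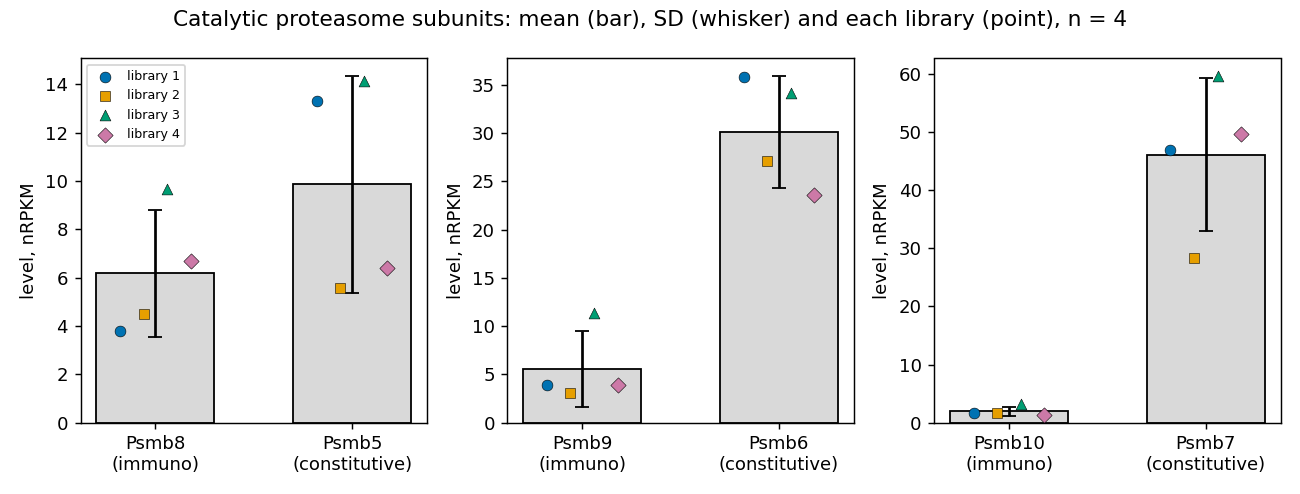
Level in nRPKM (y) of the immunoproteasome subunits Psmb8, Psmb9 and Psmb10 and of the constitutive subunits Psmb5, Psmb6 and Psmb7 (x), with the mean as bar, SD as whisker and each of the 4 libraries as a point. Psmb9 and Psmb10 lie below their counterparts in all 4 libraries and each immunosubunit has its highest point in library 3.

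The 2 subunits of the interferon-inducible proteasome activator PA28 differed widely. Psme1 (alpha) had 64.8, 67.8, 104 and 89.5 nRPKM and Psme2 (beta) had 8.38, 6.34, 7.67 and 7.22 nRPKM. Psme1 exceeded Psme2 by 11.1 ± 2.54 times, in 4 of 4 libraries (log2 difference 3.27 ± 0.35, SD, n = 4; exact permutation p = 0.125). Psme2 shares 59.3% of its 50-base words with Psme2b and Psme1 shares 14.1% with other genes, so the size of this difference is uncertain.

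Class II was represented by both I-A chains, the I-E beta chain H2-Eb1, the invariant chain and the DM genes H2-DMa and H2-DMb1. Cd74, the invariant chain, had 292, 690, 664 and 470 nRPKM in libraries 1 to 4. H2-Ab1, the I-A beta chain, had 47.4, 101, 129 and 77.4 nRPKM. H2-Aa, the I-A alpha chain, had 43.9, 93.0, 122 and 56.8 nRPKM. Library 1 was lowest and library 4 next lowest for each of these genes, and libraries 2 and 3 were highest. H2-Eb1, the I-E beta chain, had 7.76, 17.95, 20.1 and 10.8 nRPKM and followed the same order as H2-Ab1 and H2-Aa.

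Ratios between the chains ranged less over libraries than the levels, which differed more than 2-fold. H2-Ab1 over H2-Aa was 1.08, 1.09, 1.05 and 1.36 in libraries 1 to 4. H2-Ab1 exceeded H2-Eb1 by 6.33 ± 0.650 times and Cd74 exceeded H2-Ab1 by 6.06 ± 0.683 times (SD, n = 4), each in 4 of 4 libraries. The log2 differences were 0.19 ± 0.17 for H2-Ab1 minus H2-Aa, 2.56 ± 0.14 for H2-Ab1 minus H2-Eb1 and 2.58 ± 0.16 for Cd74 minus H2-Ab1 (exact permutation p = 0.125 for each). That of H2-Ab1 minus H2-Aa was 0.10 without library 4 and 0.34 on TMM-scaled CPM. None of H2-Aa, H2-Ab1, H2-Eb1 and Cd74 shares a 50-base word with another gene. No read was counted for H2-Ea, the partner of H2-Eb1 in the I-E molecule, and H2-Eb2 had 1 to 3 reads. Strain is not stated and reads were aligned to mm9. The count of 0 for H2-Ea therefore cannot be told apart from a gene that the strain or the reference lacks.

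The peptide exchange factor DM was present and its antagonist DO was not detected above the floor. H2-DMa had 8.54, 11.7, 23.7 and 8.09 nRPKM and H2-DMb1 had 6.72, 11.1, 13.2 and 6.40 nRPKM. Both peaked in library 3, with the lowest value in library 4, and H2-DMa in library 3 was 2.03-fold above the next library. H2-DMa exceeded H2-DMb1 by 1.35 ± 0.315 times, in 4 of 4 libraries (log2 difference 0.37 ± 0.31, SD, n = 4; exact permutation p = 0.125), but lay below it on TMM-scaled CPM (-0.29). Without library 3 the difference was 0.22. H2-DMb1 shares 27.2% of its 50-base words with H2-DMb2, which itself had 0 to 4 reads. H2-Oa and H2-Ob, the DO chains typical of B cells, had 0 or 1 read in each library, so a level up to 3 reads could not be detected.

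Among the regulators of class II, the transactivator had a wider range over libraries than the RFX complex; the difference was not tested. Ciita, the class II transactivator, had 0.623, 1.46, 1.52 and 2.34 nRPKM from 71, 145, 178 and 213 reads. It was lowest in library 1, like the class II chains, but highest in library 4, where the class II chains were next lowest. Rfx5, Rfxap and Rfxank had 4.80 ± 0.512, 2.09 ± 0.0422 and 1.23 ± 0.159 nRPKM (SD, n = 4), with ranges of 1.28-fold, 1.05-fold and 1.35-fold. Rfx5 and Rfxank share 25.4% and 34.9% of their 50-base words with other genes, and Rfxap shares none. Ciita exceeded Nlrc5 in 4 of 4 libraries (log2 difference of Nlrc5 minus Ciita -0.995 ± 0.41, SD, n = 4; exact permutation p = 0.125). At these low levels the pseudocount of 1 shrinks the difference, which was -2.26 with a pseudocount of 0.1 and -1.97 on TMM-scaled CPM.

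Between class I and class II, H2-K1 exceeded H2-Ab1 in 4 of 4 libraries, by 3.82, 1.51, 2.62 and 1.85 times in libraries 1 to 4. The log2 difference was 1.19 ± 0.58 (SD, n = 4; exact permutation p = 0.125). The members together took 0.340%, 0.382%, 0.579% and 0.291% of all reads in libraries 1 to 4, with 95% Wilson intervals of 0.337% to 0.344%, 0.379% to 0.385%, 0.575% to 0.583% and 0.288% to 0.294%. Without the mitochondrial ribosomal RNAs in the total the shares were 0.442%, 0.589%, 0.720% and 0.476%. Library 3 was highest in both.

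Spread between libraries was tested gene by gene over the whole table with edgeR's quasi-likelihood dispersion, in which a gene is called when its spread exceeds the trend at an adjusted p under 0.05. Of 13156 genes tested, 2 (0.0152%) were called, Xist and Tsix, and no member was among them. DESeq2 marked 62 genes (0.471%) as dispersion outliers, again without a member. At an unadjusted p under 0.05, edgeR listed 7 of the 32 members tested (21.9%) against 5.13% of all genes tested. These members were H2-Aa, H2-DMa, Psmb9, B2m, Ciita, H2-Eb1 and H2-Ab1, in order of rising p. Their adjusted p ranged from 0.823 to 0.958 in the edgeR quasi-likelihood test with Benjamini-Hochberg adjustment. Without library 3 the count was 1 of 32, Ciita, against 4.63% of all genes. Without the filter on low counts edgeR called 1 member, H2-Q7 (adjusted p = 0.0233).

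As a description without a test, 14 of the 30 members with a mean of at least 1 nRPKM (46.7%) had a 2-fold range over libraries, against 22.8% of all 11904 genes at that level. The median range was 1.84-fold for the members and 1.58-fold for all such genes. By group these were 4 of 8 class I, 3 of 12 processing and 7 of 10 class II members. Without library 3 the count was 5 of 30, against 17.9% of all genes. Library 3 was the highest library for 19 of 30 members (63.3%), against 24.5% of all genes. Library 1 was highest for 2 (22.5% of all genes), library 2 for 3 (25.4%) and library 4 for 6 (27.6%). The lowest library was 1 for 12 members (26.8% of all genes), 2 for 2 (26.6%), 3 for 3 (18.4%) and 4 for 13 (28.1%). In 6 of 30 library 3 was at least 1.5 times above every other library, against 0.731% of all genes; they were H2-K1, H2-D1, B2m, Psmb9, Psmb10 and H2-DMa. The 1.5-fold limit was chosen after the values were seen.

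The class I and class II members ordered the libraries differently. The median class I member deviated from its mean over the 4 libraries by -0.07, -0.24, 0.44 and -0.31 log2 units in libraries 1 to 4. The median class II member deviated by -0.50, 0.18, 0.46 and -0.13, and the median processing member by -0.17, -0.02, 0.19 and -0.09. Over all 11904 genes the medians lay between -0.01 and 0.03. Library 1 was the lowest library for 7 of 10 class II members and for none of the 8 class I members, beside the 26.8% of all genes lowest there. Whether the class I and class II deviations differ was not tested.

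**Figure D4:**
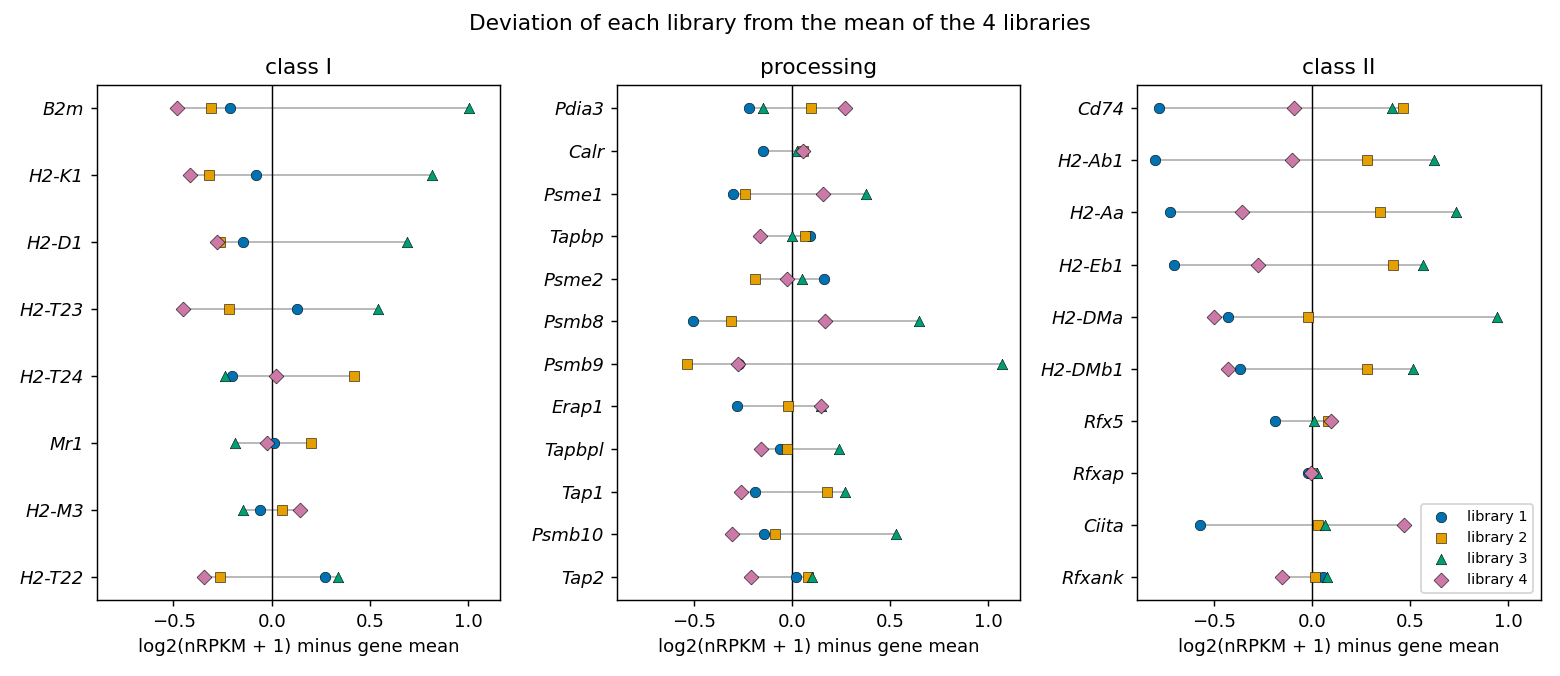
Difference of log2(nRPKM + 1) from the gene's mean over the 4 libraries (x) for the 30 members with a mean of at least 1 nRPKM (y), in 3 panels, with 1 point per library. Library 3 lies to the right for B2m, H2-K1, H2-D1, Psmb9 and H2-DMa, library 1 lies to the left for Cd74, H2-Ab1, H2-Aa and H2-Eb1, and the RFX genes lie near 0.

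Cell type markers were set beside these results, since class II is also a hallmark of leukocytes. The 6 genes of the class II chains, Cd74 and DM summed to 406, 925, 972 and 630 nRPKM in libraries 1 to 4, and the 12 type II markers, led by Sftpc and Sftpb, summed to 10290, 17360, 22350 and 17130 nRPKM. The median of these 6 class II genes deviated by -0.71, 0.31, 0.59 and -0.32 log2 units and that of the type II markers by -0.63, 0.32, 0.28 and 0.11. Both lists were thus lowest in library 1. In bulk RNA, fewer cells of a type and less RNA per cell cannot be told apart.

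Dendritic and B cell markers were low and macrophage markers were higher. None of these lists had the order of class II when Lyz2 was left out of the macrophage list. Of 9 dendritic cell markers, 2 had a mean of at least 1 nRPKM (Fscn1 and Itgax), Flt3, Cd209a and Ccr7 had no read, and the sum was 4.47, 3.95, 0.973 and 1.65 nRPKM. Most of this sum came from Fscn1 (2.50, 1.90, 0.376 and 0.713 nRPKM) and Itgax (1.73, 1.67, 0.309 and 0.503). No other marker of that list had more than 14 reads in a library. Of 7 B cell markers, 2 had at least 1 (Cd79b and Blnk), Pax5 had no read, and the sum was 3.12, 2.03, 2.37 and 2.62 nRPKM. The 13 macrophage and monocyte markers other than Lyz2, which type II cells also make, summed to 106, 117, 47.3 and 38.4 nRPKM, led by Cd68 and Cd14, and none of them was at 0 in all libraries. With Lyz2 (1283, 1601, 2191 and 1578 nRPKM) the sum was 1389, 1718, 2239 and 1616 nRPKM, the same order as class II. The leukocyte gene Ptprc had 0.422 ± 0.193 nRPKM (SD, n = 4), while Lcp1, also a leukocyte marker, had 30.6 ± 5.48. Of 8 T and NK cell markers measured, none reached 1 nRPKM, and Cd3g, Ncr1, Nkg7 and Ifng had no read. Library 3, where the class II sum was highest, had the lowest dendritic cell sum and, without Lyz2, a macrophage sum less than that of libraries 1 and 2. Library 2, with the next highest class II sum (925 nRPKM), had the highest macrophage sum without Lyz2. Library 4, with a class II sum of 630 nRPKM, had the lowest. The part of macrophages and dendritic cells in the class II level was not tested.

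**Figure D5:**
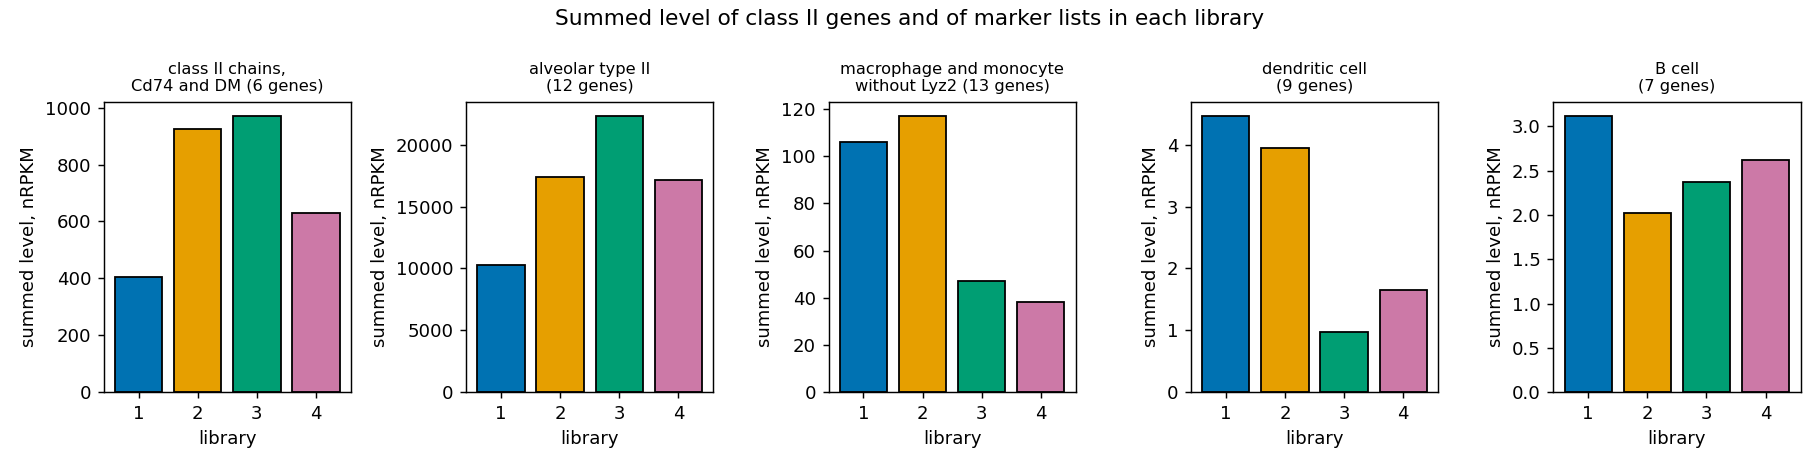
Summed level in nRPKM (y, each panel with its own scale from 0) in libraries 1 to 4 (x) of the 6 class II chain, Cd74 and DM genes and of marker lists of type II cells, macrophages and monocytes (without Lyz2), dendritic cells and B cells. Class II and type II sums are lowest in library 1, whereas dendritic cell sums, mostly of Fscn1 and Itgax, are highest there and lowest in library 3.

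Other genes of the pathway were taken from lists chosen together with the members; all of the following counts are of genes with a mean of at least 1 nRPKM. The list of 12 endosomal genes of class II processing also held membrane genes and Marchf1 and Marchf8, which do not cut peptides. Of the 12 genes, 11 reached this mean, led by the cathepsins Ctsh (885 ± 86.1 nRPKM) and Ctsd (298 ± 79.7) and the lysosomal membrane gene Lamp1 (256 ± 46.1). Of these, 6 were lowest in library 4, 2 in library 1, 2 in library 2 and 1 in library 3, whereas Cd74 was lowest in library 1. All 8 genes listed for endoplasmic reticulum folding and loading, Lnpep and Sec61b among them, reached it. They were led by Hsp90b1 (462 ± 125), Hspa5 (330 ± 88.0) and Canx (87.7 ± 18.5; SD, n = 4). None of them had a 2-fold range, against 22.8% of all genes at that level.

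Levels of costimulatory genes were uneven. Of 12 costimulation and checkpoint ligands 6 reached 1 nRPKM, led by Lgals9 (42.7 ± 9.57 nRPKM), Pvr (18.9 ± 3.11) and Cd276 (16.8 ± 4.08; SD, n = 4). Cd86 and Cd40 had at most 3 and 2 reads in a library and Cd80 had 5 to 17 reads, while Tnfsf9 had 9.39 ± 2.18 nRPKM (SD, n = 4); these 4 were named after their values were seen. Of 10 NKG2D ligands and other class I-like genes, 5 reached it, led by Procr (13.7 ± 7.32), Raet1e (7.74 ± 1.66) and Hfe (5.72 ± 0.638), and Cd1d2 had no read. Of 10 further MHC genes with a row, only H2-Ke6 (6.27 ± 0.357) reached it; it encodes an enzyme and not an antigen-presenting chain. H2-Q9 (0.954 ± 1.39) and H2-Q5 (0.127 ± 0.191) were next (SD, n = 4).

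Receptor and kinase genes of the interferon gamma pathway were expressed, while no read was counted for its ligand Ifng. The list of 16 genes also held activators not specific to this pathway, such as Nfya, Creb1 and Cited2. Of the 16 genes 14 reached 1 nRPKM, led by Ifngr2 (21.3 ± 4.19 nRPKM), Jak1 (15.9 ± 1.57) and Cited2 (14.7 ± 3.76; SD, n = 4). Irf8 (0.201 ± 0.158) and Socs1 (0.268 ± 0.134; SD, n = 4) did not. None of the 14 had a 2-fold range, against 22.8% of all genes at that level. The edgeR test listed none of them at an unadjusted p under 0.05, against 5.13% of all genes tested. Among 5 NF-kappaB genes 4 reached it, led by Rela (6.31 ± 1.47), Nfkb1 (4.59 ± 0.455) and Nfkbia (3.03 ± 0.983; SD, n = 4). Of 13 interferon-induced genes only 4 reached it, Irgm1 (5.19 ± 0.379), Mx1 (2.63 ± 0.978), Igtp (1.79 ± 0.592) and Cxcl10 (1.67 ± 1.19; SD, n = 4). Of these, Mx1 and Cxcl10 were highest in library 1 and not in library 3, where class I was highest, and Igtp was highest in library 3.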

How the data were processed

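RNA of 4 libraries of cultured type II cells was analysed from 1 deposited table each. Per the file headers, the deposited count is the number of reads aligned uniquely to a gene model, and VALUE is the size-factor-adjusted RPKM (nRPKM) that the authors computed. Per the submitters' processing notes, GSNAP and mm9 were used; their versions, the annotation and any use of strand were not given in the sources used here. Dividing each deposited RPKM by its count gave 1 constant ratio between libraries for 100.0% of genes, within 0.001 of relative error. Symbols were matched by Entrez identifier to RefSeq GRCm38.p6 for 25035 of 28096 identifiers.

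Members and lists were chosen with earlier results of these data known. Named genes were all members, every gene of the pairs and the 3 highest of each pathway list except the constitutive proteasome list. Of the type II, type I, dendritic cell, B cell and macrophage lists (the last without Lyz2) the 2 highest were named. Markers at 0 were named for the dendritic, B, T and NK cell lists. Genes of the club, basal, mesenchymal and endothelial lists were not named. The promoters of H2-DMb1, H2-D1 and Psmb9 and other genes named were added after their values were seen. Spread was tested on counts with edgeR 4.0.16 (intercept only, TMM, filterByExpr, quasi-dispersion against the trended prior, Benjamini-Hochberg) and, as alternative, DESeq2 1.42.0 in R 4.3.3; the edgeR step was tested on simulated data. A pseudocount of 1 was used for log2 values. Sign-flip tests were exact and two-sided. In pairwise chi-square tests the statistic per degree of freedom was 41.8 to 121, so no library repeats another. Intervals and floors (3 reads) cover counting error only. Alternatives were other scalings, pseudocounts and filters, and leaving out each library. The result of 1 searched motif and of 1 marker gene is not reported here.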

Additional observations from a re-analysis of the deposited data

Results flagged for a closer look

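Among 42 members with reads, 8 had a library whose distance to the nearest other library, as a part of the range of the 4 values, exceeded Dixon's 95% critical value; chance flags about 1 in 20 such groups. The same held for 14.1% of all genes with reads. At a mean of at least 1 nRPKM it held for 4 of 30 members and for 5.96% of all genes. In library 3 the far value was the highest: B2m with 562 nRPKM, H2-D1 with 187, Psmb9 with 11.4, H2-Q7 with 3.02 and H2-Q6 with 1.31. Calr was far on the low side in library 1, with 114 nRPKM against 128 to 131 elsewhere, a range of only 1.15-fold. H2-Eb2 in library 4 (0.0545 nRPKM, 3 reads) and H2-Oa in library 2 (0.0537 nRPKM, 1 read) were also far, on too few reads to describe. Of the 5 members that were far in library 3, H2-Q6 and H2-Q7 share sequence with each other. Library 3 is also the library with high Xist and nearly no reads of Y-linked genes, and it had the lowest club, basal and mesenchymal markers; the part of these differences in the class I values was not tested.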

How the results depend on the processing

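No paired analysis was possible because all libraries belong to 1 group. The count of genes called for spread, 2, was 66 without the filter and 62 by DESeq2, and from 0 to 6 when a library was left out; with 0 calls without library 2 or 3, edgeR had 640 and 619 genes at an unadjusted p under 0.05. The count of members called, 0, became 1 without the filter. The members at an unadjusted p under 0.05, 7, were 11 without the filter and from 1 to 7 when a library was left out, the lowest without library 3. Members with a 2-fold range, 14, were 25 without a limit on level and from 5 to 14 when a library was left out, the lowest again without library 3. On TMM-scaled CPM, the difference of B2m and H2-K1 turned to -0.39 and that of H2-DMa and H2-DMb1 to -0.29, because that scale has no gene length. In all, 180 other values of these comparisons kept their direction, stayed within 1.5-fold (counts) or stayed within the spread between libraries. So did 198 levels and ranges of single members, a wide limit where libraries differ much. Without library 3 the level of H2-Q7 went from 0.949 to 0.260 nRPKM and that of H2-Q6 from 0.470 to 0.188. Some small median deviations among the 180 values changed sign without library 3. That of class I members in library 1 went from -0.0681 to 0.104. Those of processing members went from -0.0208 to 0.0523 in library 2 and from -0.0925 to 0.03 in library 4. The counts of members highest in library 3 (19) and at least 1.5 times higher there (6) were recomputed on TMM-scaled CPM after seeing the data and were 20 and 6, or 20 and 7 without mitochondrial genes. Members with few reads (Q region, DO chains, H2-Eb2, Cd1d1) are limited by depth.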
